A study of Mus musculus with 2 samples.

Results

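Cluster 12 of the aortic leukocytes is a group of cells whose summed RNA holds both B cell genes and T lineage genes. Its members are the cells that the deposited cell table assigns to cluster 12, which the depositors named B cells. They number 250 of 7613 cells, 62 from the saline library and 188 from the nt-LNA library. Their expression was read from the counts that the authors summed over the cluster, and was set beside the other clusters named B cells (1, 2 and 4) and the T lineage clusters 5 and 9.

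The cells came from Apoe-/- mice, which lack apolipoprotein E and develop atherosclerosis. Every animal was kept on a western diet for 4 weeks, with a weekly dose of saline or of the agent labelled nt-LNA at 30 mg/kg. Live cells of the aortic arch and thoracic aorta were sorted as positive for CD45, the pan-leukocyte surface protein, and negative for CD3, the T cell surface complex. Each treatment gave 1 droplet 3' RNA library, from a number of mice that no source used here states. Each cluster's counts join the saline and nt-LNA cells, so genes could be compared between clusters but not between treatments. All intervals below are 95% intervals for counting error only, and no p-value was computed.

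B cells sense antigen through an immunoglobulin receptor that signals through the Cd79a and Cd79b chains. Pax5 holds them to the B lineage. T cells instead carry a T cell receptor coupled to the CD3 chains and arise in the thymus. There, immature T cells cut and join their receptor genes with the Rag1 and Rag2 recombinase, add bases at the joints with Dntt, and pass through a stage that carries both coreceptors, Cd4 and Cd8. Mature B and T cells in tissues have normally shut off Rag1 and Dntt.

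The results turn on a B gene and a T lineage gene that were both abundant in these cells, Cd79a and Rag1. The sequences just before the starts of both are shown, since the genes of each lineage are taken as a set below. They are RefSeq promoter entries of build GRCm38.p6, matched by symbol, from 250 bases before the start up to it, on the gene's own strand. The Cd79a stretch is chr7:24897247-24897496 (plus strand) and the Rag1 stretch is chr2:101649533-101649782 (minus strand). Capitals mark matches to the E box letters CAGCTG or CAGGTG and to the Runx letters TGTGGTT, on either strand.
Cd79a: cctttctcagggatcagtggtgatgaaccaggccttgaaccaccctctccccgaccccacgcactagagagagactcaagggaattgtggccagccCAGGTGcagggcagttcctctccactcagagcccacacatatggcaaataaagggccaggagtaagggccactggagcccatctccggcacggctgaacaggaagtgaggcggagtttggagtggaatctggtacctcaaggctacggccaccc
Rag1: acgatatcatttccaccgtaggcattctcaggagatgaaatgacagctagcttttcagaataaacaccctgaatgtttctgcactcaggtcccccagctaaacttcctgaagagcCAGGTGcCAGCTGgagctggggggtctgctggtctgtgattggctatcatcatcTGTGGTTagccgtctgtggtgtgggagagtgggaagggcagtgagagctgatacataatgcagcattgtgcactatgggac

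Of the 48 T genes and 36 B genes defined further on, 32 and 22 had such an entry. E box letters stood in 18 of the 32 T genes (56.2%), in 8 of the 22 B genes (36.4%) and in 30.6% of all 27025 genes with an entry. Runx letters stood in 4 T genes, 2 B genes and 5.08% of all genes. The octamer ATGCAAAT stood in 0 T genes, 3 B genes and 1.81% of all. CTTTGAA or CTTTGAT, letters read by Tcf factors, stood in 4 T genes, 2 B genes and 8.63% of all. The Ets letters CCGGAAG stood in 1 T gene, 0 B genes and 7.83% of all. TCCC and GGGA spaced by 2 bases, letters read by Ebf1, stood in 0 T genes, 1 B gene and 0.914% of all. Both strands were searched for each, the E box letters CAGCTG read the same on both, and a match is a run of letters, not a shown binding site.

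Cluster 12 made up a larger share of the nt-LNA library than of the saline library. It held 62 of 2742 saline cells, or 2.26% (exact Clopper-Pearson interval 1.74 to 2.89), and 188 of 4871 nt-LNA cells, or 3.86% (3.34 to 4.44). The ratio was 1.71 (exact conditional interval 1.27 to 2.31). Among cells of the clusters named B cells it held 8.42% (6.52 to 10.7) of 736 saline cells and 12.4% (10.7 to 14.1) of 1521 nt-LNA cells. That ratio was 1.47 (1.10 to 1.99). Of the other B clusters, clusters 2 and 4 had ratios of 1.84 and 1.5 over all cells and cluster 1 had 0.600. T lineage cluster 5 had a ratio of 2.29, and cluster 9 had 1.11 with an interval of 0.890 to 1.40 that holds 1. With 1 library per treatment, treatment and library cannot be told apart. The libraries shared 2 cell barcodes, and 0 of them belonged to cluster 12.

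**Figure D1:**
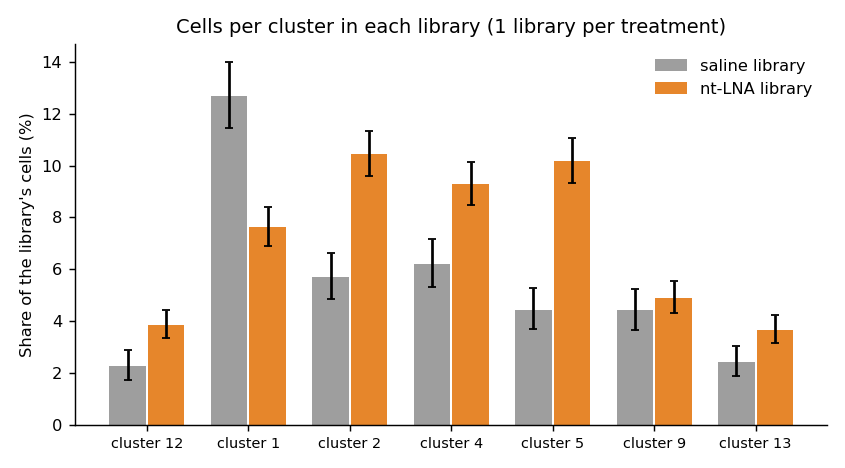
Share of each library's cells (%, vertical axis) in cluster 12, in B clusters 1, 2 and 4, and in clusters 5, 9 and 13, which were named T cells. Bars are the saline and nt-LNA libraries and error bars are exact 95% binomial intervals. Cluster 12 stands at 2.26% and 3.86%.

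Mean RNA per cell in cluster 12 was above that of clusters 1, 2, 5 and 9 and near that of cluster 4. The cluster summed 2970907 UMIs (unique molecular identifiers, each counting 1 captured RNA molecule), or 11884 per cell, the 7th highest of the 20 clusters. Clusters 1, 2 and 4 held 5925, 2296 and 11201 UMIs per cell, and T lineage clusters 5 and 9 held 1278 and 3467. Mitochondrial genes gave 4.15% of the UMIs of cluster 12 and ribosomal protein genes 26.4%. Cluster 2 had 10.1% mitochondrial UMIs and cluster 5 had 7.24%, and their low depth and high mitochondrial share stand beside every comparison with them.

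The 5 markers given for the cluster were all present in it. Levels are in CPM, the counts of a gene scaled to a common total for every cluster. Cd79a stood at 2309 CPM (2255 to 2364) in cluster 12, against 3376, 5662 and 2248 in clusters 1, 2 and 4 and 118 and 84.9 in clusters 5 and 9. Its level lay with the B clusters and far above the T clusters. Pax5 stood at 139 CPM, against 316, 289 and 115 in the B clusters and 21.5 and 8.01 in the T clusters. Iglc2, a lambda light chain constant gene, stood at 955 CPM, against 1244, 1340 and 1647, and 78.5 and 48.9. Reads of Iglc1, Iglc2 and Iglc3, which are near-identical copies, may have been split among them, so their separate values are uncertain. Sox5, a transcription factor, stood at 22.2 CPM (17.2 to 28.3), against 4.69, 45.8 and 39.0 in the B clusters and 0 counts in both T clusters, where the upper limits are 4.67 and 2.96 CPM. Cd3e, a CD3 chain, stood at 308 CPM (288 to 328), against 13.8, 25.5 and 10.7 in the B clusters and 1331 and 817 in the T clusters. Cd3e in cluster 12 was thus above every B cluster and below both T clusters. The authors drew the clusters from these very genes, so every gene difference between clusters is a description and was not tested.

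To set both lineages on 1 scale, the fixed gene lists were cut by levels in clusters 1, 5 and 9, without using cluster 12. B genes had at least 50 CPM in cluster 1 and under 10% of that level in clusters 5 and 9, which left 36 genes. T genes had at least 50 CPM in cluster 9 and under 10% of that level in cluster 1, which left 48 genes. Clusters 2 and 4 had no part in this choice, and the T gene Ctla4 was higher in both than in cluster 9. In cluster 12 the B genes summed to 28125 CPM and the T genes to 13307 CPM. Per cell this was 334 UMIs of B genes, above the 245 of cluster 1 and the 151 of cluster 2 but below the 687 of cluster 4. It was also 158 UMIs of T genes, above the 127 of cluster 9 and the 48.7 of cluster 5, and against 5.0 in cluster 1. Clusters 13 and 6 held 160 and 336 UMIs of T genes per cell, above cluster 12. By CPM cluster 12 ranked 4th of 20 clusters for the B genes and 7th for the T genes, and none of the other 19 clusters lay above it in both. Next below cluster 12 on the B genes were clusters 8 and 17, at 26243 and 24101 CPM, and then macrophage cluster 0 at 20486 CPM. The B genes include class II genes and Cd74, which macrophages also use. The counts are sums over the cluster, so cells that each held both sets, droplets that caught more than 1 cell, RNA free in the suspension and a mixture of cells that held 1 set each cannot be told apart. The B and T values below are levels of the cluster as a whole.

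**Figure D2:**
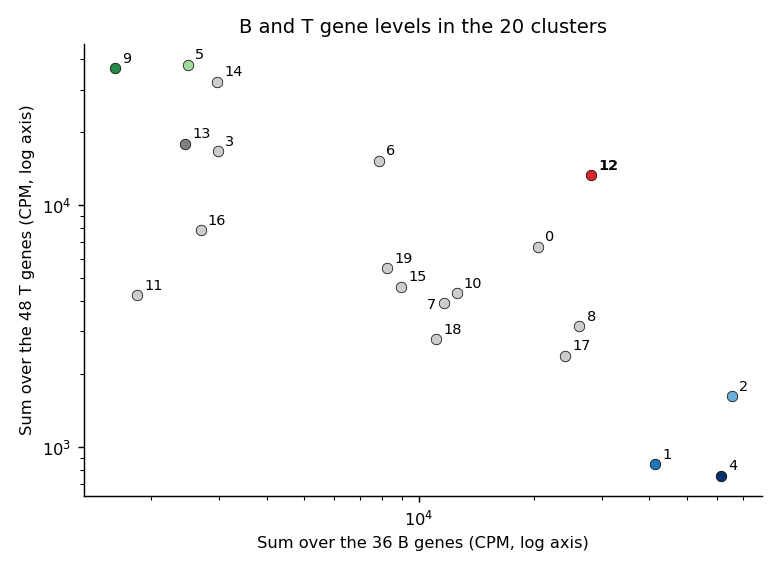
Summed CPM of the 36 B genes (horizontal, log axis) against summed CPM of the 48 T genes (vertical, log axis), 1 point per cluster, labelled by number. Cluster 12 lies at 28125 and 13307 CPM, with no point above and to the right of it.

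The genes of the B cell receptor and its signalling summed to 16787 CPM in cluster 12, level with the 16794 of cluster 4 and below the 24953 and 39303 of clusters 1 and 2. Ratios here are log2 of cluster 12 over the mean CPM of clusters 1, 2 and 4, with 0.5 CPM added to both. Across the 10874 genes with enough counts, 7.66% exceeded the B clusters more than 2-fold and 2.77% lay more than 2-fold under them, with a median of 0.12. Of the 22 receptor and signalling genes, all 22 passed the count filter, 0 were over 2-fold higher and 3 over 2-fold lower, with a median of -0.70. Without cluster 2, which is shallow, that median was -0.32. The 3 lower genes were Siglecg, an inhibitory receptor (187 CPM against 236, 736 and 233), Cr2, a complement receptor (56.5 against 155, 178 and 14.9), and Pik3ap1, an adaptor with 11 counts. Ms4a1, the CD20 protein, stood at 821 CPM against 1027, 2232 and 902. In T clusters 5 and 9 it stood at 39.2 and 25.6 CPM.

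B lineage transcription factors summed to 3675 CPM, near the 3798 of cluster 4 and below the 5945 and 6852 of clusters 1 and 2. All 17 passed the filter, 0 were over 2-fold higher or lower, and the median was -0.51. Ebf1, which specifies the B lineage, stood at 819 CPM (787 to 852), against 1419, 2483 and 557 in clusters 1, 2 and 4. Mef2c, a factor of B cell survival, stood at 379 CPM against 910, 946 and 301. Both lay between clusters 1 and 4. Tcf3, the E protein that both lineages use, stood at 78.4 CPM, against 79.6, 77.3 and 65.9 in the B clusters and 73.4 and 107 in the T clusters.

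Class II presentation genes, with which B cells display peptides to T cells, had 0 of 13 over 2-fold higher and 1 over 2-fold lower, with a median of -0.67. H2-Ab1 stood at 2033 CPM against 3440, 5583 and 1862. The lower gene was H2-Eb2, with 14.5 CPM against 55.6, 54.4 and 11.3. Of 27 activation and survival genes, 1 was higher and 1 lower, with a median of -0.57. The higher one was Bcl2l1, which encodes the survival protein Bcl-xL, at 36.7 CPM against 4.69, 7.86 and 4.87 in the B clusters. Clusters 5 and 9 held 51.9 and 101 CPM of it. The lower one was Cd40, the receptor for T cell help, at 22.6 CPM against 52.1, 85.8 and 24.1.

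Genes that separate kinds of mature B cell stood in cluster 12 between those of cluster 1 and cluster 4. Fcer2a, the CD23 protein of follicular B cells, stood at 121 CPM (109 to 134), against 319 and 337 in clusters 1 and 2 and 40.1 in cluster 4. Ighd, the IgD constant gene of naive cells, stood at 296 CPM against 791, 770 and 140. Genes of B-1 cells, the innate-like B cells of body cavities, ran the other way. Zbtb32 stood at 24.2 CPM against 4.93, 51.7 and 81.0. Bhlhe41, a factor needed by B-1 cells, stood at 39.7 against 15, 75.3 and 117. Il5ra, the interleukin-5 receptor, stood at 34.3 against 14.3, 124 and 68.1. In each of these genes cluster 12 lay inside the range of the other B clusters. Of 23 genes of B-1, marginal zone and memory-like B cells that passed the filter, 2 were over 2-fold higher and 2 lower, with a median of -0.42. Against cluster 1 alone that median was 1.16. One of the higher genes was Cd5, which B-1a cells and T cells both use, at 43.8 CPM against 5.87, 11.1 and 4.73, with 209 and 114 in clusters 5 and 9.

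The genes whose profile over the 20 clusters was most like that of Sox5 were Il5ra (Pearson's r 0.92 of log2 CPM), Gm15228 (0.92), Lmo7 (0.92), Fkbp11, a chaperone of secretory cells (0.91), and Mzb1, an endoplasmic reticulum protein of B-1 and marginal zone cells (0.88). All 20 clusters share the same pooled libraries and differ in depth, and these values describe likeness only. Lmo7 stood at 19.2 CPM in cluster 12, against 2.11, 60.9 and 62.2 in the B clusters and 0 counts in clusters 5 and 9. Sox5, Il5ra and Lmo7 stood in cluster 12 above cluster 1 and below clusters 2 and 4, an order they share by the way they were picked.

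The antibody secretion genes that were abundant in cluster 4 were low in cluster 12. Jchain, which joins secreted IgM and IgA, stood at 10.4 CPM (7.09 to 14.8), against 10.8, 57.6 and 2597 in clusters 1, 2 and 4. Igha, the IgA constant gene, had 8 counts, or 2.69 CPM, against 1820 in cluster 4. Ighg1, of the IgG1 class, stood at 16.5 CPM (12.2 to 21.8), against 1.17, 7.20 and 511, so it was above clusters 1 and 2 and below cluster 4. Of 12 immunoglobulin constant genes that passed, 0 were over 2-fold higher and 7 lower, with a median of -1.48. That median was -0.91 without cluster 4, -0.88 without cluster 2 and -0.38 against cluster 1 alone. Ighm, of the IgM class, stood at 2500 CPM against 2634 in cluster 1 and 9453 in cluster 4. Of 15 plasma cell genes 1 was higher and 4 lower. The higher one was Edem1, a protein quality control gene, at 158 CPM against 32.9, 64.8 and 63.9, with 472 and 345 in clusters 5 and 9.

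**Figure D3:**
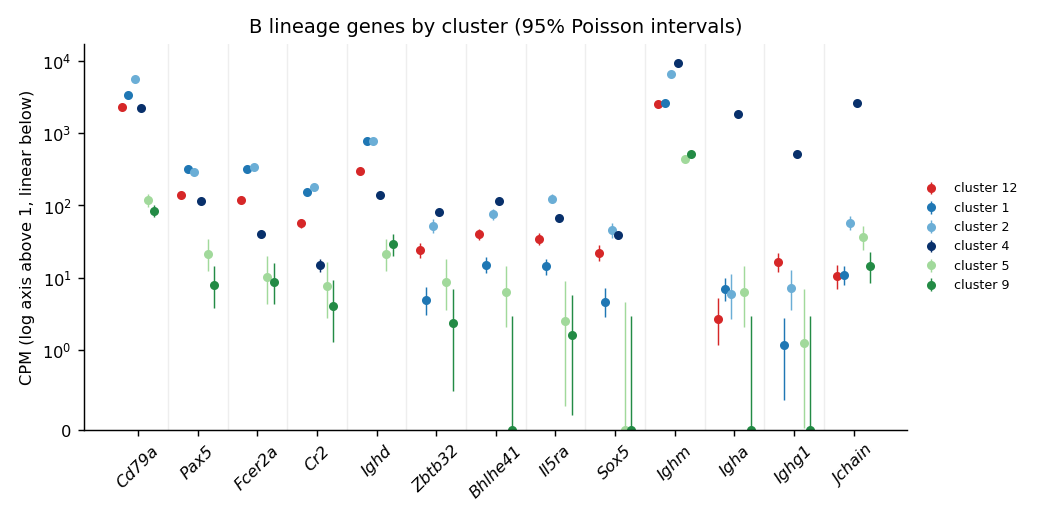
CPM (vertical, log axis above 1 and linear below) of 13 B lineage genes in clusters 12, 1, 2, 4, 5 and 9, with exact 95% Poisson intervals. Cluster 12 lies between clusters 1 and 4 for Fcer2a, Cr2, Ighd, Zbtb32, Bhlhe41, Il5ra and Sox5, and is far below cluster 4 for Igha, Ighg1 and Jchain.

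Against this B cell background, the CD3 and T cell receptor genes stood out. Of 11 such genes 9 passed the filter, and all 9 were over 2-fold higher than in the B clusters, with a median of 3.84. Of all genes that passed, 7.66% were. The filter counts cluster 12 itself, so T genes scarce in B cells can pass through their counts there. This limit holds for every T list below, and the counts of members describe the lists only. Trbc1 and Trbc2, the beta chain constant genes, stood at 1301 and 2016 CPM. In the B clusters Trbc2 stood at 129, 215 and 78.1 CPM, and in clusters 5 and 9 at 3350 and 6305. The 2 beta constant genes are close copies, so reads may have been split between them. Trac, the alpha chain constant gene, stood at 170 CPM (156 to 186), against 15.3, 21.0 and 9.32 in the B clusters and 581 and 530 in clusters 5 and 9. The gamma and delta chains were scarce by comparison. Tcrg-C1 had 15 counts, or 5.05 CPM, against 519 CPM in cluster 13, another cluster named T cells. The delta gene Trdc stood at 22.9 CPM against 254 in cluster 13 and 58.2 and 53.7 in clusters 5 and 9.

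Both coreceptors were present. Cd4 stood at 171 CPM (156 to 186), against 10.6, 15.7 and 4.16 in the B clusters and 839 and 465 in clusters 5 and 9. Cd8a stood at 455 CPM, against 17.4, 49.8 and 16.6, and 1508 and 1195. Cd8b1 stood at 920 CPM (886 to 955), against 33.3, 59.6 and 22.9, and 3355 and 2332. Each stood above every B cluster and below both T clusters. Of 24 coreceptor and proximal signalling genes, 21 were over 2-fold higher than the B clusters and 0 lower, with a median of 3.29. Lck, the kinase that starts T cell receptor signalling, stood at 358 CPM against 33.8, 51.1 and 21.4. Lat, the adaptor downstream of it, stood at 390 CPM against 21.1, 27.5 and 16.3. An exception was Cd2, an adhesion receptor that mouse B cells also carry, at 351 CPM against 244, 699 and 523.

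Of 18 T lineage transcription factors that passed, 11 were over 2-fold higher than the B clusters and 0 lower, with a median of 2.17. Bcl11b, which commits cells to the T lineage, stood at 328 CPM (308 to 349), against 15.7, 32.7 and 11.2 in the B clusters and 895 and 912 in clusters 5 and 9. Tcf7 stood at 573 CPM against 34.5, 64.8 and 21.1, and 801 and 1635. Foxp3, Tbx21 and Zbtb16, factors of regulatory, type 1 and innate-like T cells, had 0 counts in cluster 12. Clusters 5 and 9 had 0 counts of Foxp3 and Tbx21 as well.

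Genes of immature thymic T cells were among the most abundant T lineage genes in cluster 12. Rag1 stood at 494 CPM (469 to 520), against 21.4, 64.8 and 12.5 in the B clusters and 1123 and 1657 in clusters 5 and 9. Its level was the 3rd highest of the 20 clusters. Dntt stood at 370 CPM against 19.5, 57.6 and 13, and 401 and 1203. Rag2 stood at 17.5 CPM (13.1 to 23.0), with 0 counts in cluster 1 and 20.3 and 36.9 CPM in clusters 5 and 9. Ccr9, a homing receptor of thymocytes, stood at 423 CPM against 24.4, 52.4 and 17.3. Aqp11, a water channel, stood at 158 CPM against 4.93, 9.82 and 6.45. Of 18 thymocyte stage genes that passed, 13 were over 2-fold higher and 0 lower, with a median of 3.66. Of all genes that passed, 7.66% were higher, and the filter again counts cluster 12 itself. Ptcra, which pairs with the beta chain before the alpha chain is made, stood at 10.8 CPM against 234 in cluster 13. H19 had 0 counts, also in clusters 5 and 9, against 69.3 CPM in cluster 13.

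Rag1 and Dntt also belong to the list of early B cell stages, so that list does not separate the lineages. Of its 17 genes 13 passed, 7 were over 2-fold higher and 0 lower, with a median of 1.03. Parts of the surrogate light chain of B cell precursors were near 0, with 10 counts of Vpreb1, 1 of Vpreb2 and 1 of Igll1. Of 9 germinal centre genes 2 were higher, Fas (48.8 CPM, with 133 and 123 in clusters 5 and 9) and Basp1 (35.7 CPM, with 29.1 and 41.7).

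Genes of mature T and innate lymphoid effector cells did not share this pattern. Of 14 that passed, 3 were over 2-fold higher than the B clusters and 1 lower, with a median of -0.01. The list summed to 725 CPM in cluster 12, against 652, 1248 and 613 in the B clusters. In clusters 5 and 9 it summed to 661 and 434 CPM, so those T clusters were not high in it either. Cd40lg, Il5, Il13, Il21 and Gzmk had 0 counts in cluster 12, which for 1 gene allows up to 1.24 CPM. Ifng had 3 counts and Il4 had 1. Il2ra, the interleukin-2 receptor alpha chain, stood at 5.39 CPM against 437 in cluster 13. Gzma, a granzyme of killer cells, stood at 114 CPM against 10.8, 23.6 and 81.8 in the B clusters and 180 and 168 in clusters 5 and 9.

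**Figure D4:**
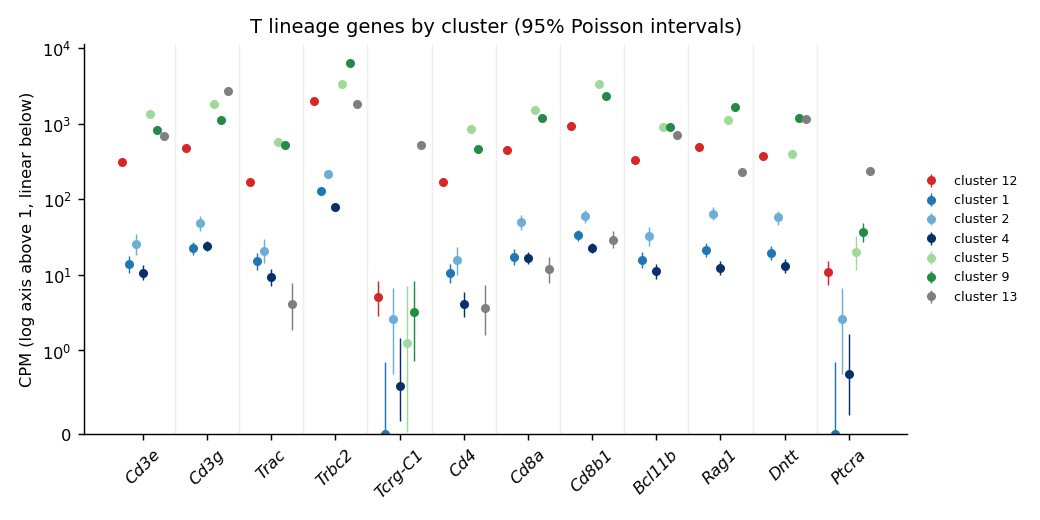
CPM (vertical, log axis above 1 and linear below) of 12 T lineage genes in clusters 12, 1, 2, 4, 5, 9 and 13, with exact 95% Poisson intervals. Cluster 12 lies between the B clusters and clusters 5 and 9 for all but Tcrg-C1, which is low in all of these, and for Dntt and Ptcra its interval meets that of cluster 5.

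The T genes stood in cluster 12 at nearly 1 fraction of their level in cluster 9. The level in cluster 1, the low background of these genes in B cells, was first subtracted from both. Over the 19 T genes with under 10 CPM in cluster 1 the median was 35.1% of cluster 9, with quartiles of 31.2 and 37.6. Over all 48 T genes the median was 35.2%, with quartiles of 31.8 and 37.4, and 46 of the 48 lay between 25% and 50%. Cd3e stood at 36.6%, Trac at 30.1%, Cd4 at 35.2%, Cd8a at 37.2%, Bcl11b at 34.9% and Rag1 at 28.9%. The genes outside were Gzma at 65.8% and Ctla4, an inhibitory receptor that clusters 2 and 4 also carried (131 and 129 CPM), at 77.6%. By the same measure clusters 2 and 4 had medians of 1.90% and -0.83% over the 48 genes.

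Against clusters 5 and 13 the T genes were chosen anew, as genes with at least 50 CPM in that cluster and under 10% of it in cluster 1, so the sets differ. Against cluster 5 the median was 29.0% over 46 genes, up to 94.5% for Dgkeos, with quartiles of 22.4 and 39.6. Against cluster 13 it was 45.1% over 40 genes, from 0 for H19 to 223% for Rag1, with quartiles of 7.68 and 63.1. That set admits genes high in cluster 13 and low in clusters 5 and 9, such as H19 and Tcrg-C1, and leaves out Trac, Cd4 and Cd8a. Over the 30 genes that all 3 sets share, the medians were 36.7% of cluster 9 (quartiles 32.8 and 38.2), 34.6% of cluster 5 (26.2 and 43.1) and 52.9% of cluster 13 (39.9 and 80.7). The middle of the genes was thus narrowest against cluster 9 in this shared set, which was chosen after the data were seen. Genes in which cluster 13 stood far above cluster 12 were H19, Tcrg-C2, Hes1, Il2ra, Tcrg-C4, Nkg7 and Tcrg-C1. With the cluster 1 level subtracted from both, each was under 1% of the level in cluster 13. Genes in which cluster 12 stood above cluster 13 were Rag1, Endou and Trbc2. Trac, Cd4 and Cd8a, at 4.13, 3.67 and 11.9 CPM in cluster 13, were also far above it in cluster 12. The rule of under 10% in cluster 1 was chosen after the data were seen.

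Over the 36 B genes, with no background subtracted, cluster 12 held a median of 58.9% of the level in cluster 1, with quartiles of 43.9 and 70.9, from 26.0% for H2-Eb2 to 119% for Iglc1. Over the 9 B genes with under 10 CPM in clusters 5 and 9 the median was 44.9%. Pax5 stood at 44.1%, Cd79a at 68.4%, Cxcr5, the follicle homing receptor, at 93.7% and Mzb1 at 115%. Vpreb3, Cr2, Ighd and Fcer2a, at 32.1% to 37.9%, were among the lowest, and these genes were also low in cluster 4.

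**Figure D5:**
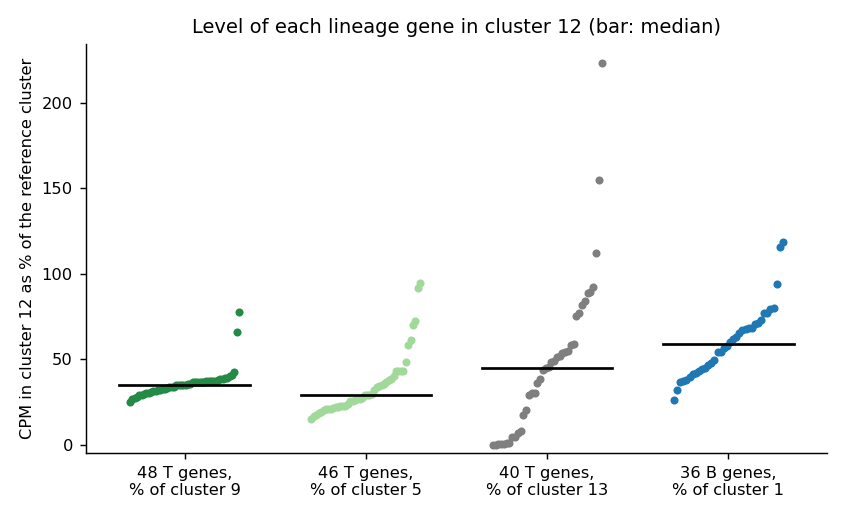
Level of each lineage gene in cluster 12 as a percent of a reference cluster (vertical), 1 point per gene in ascending order, with the median as a bar. Points for T genes have the cluster 1 level subtracted. Of the 48 points against cluster 9, 46 lie between 25% and 50%, those against cluster 13 run from 0 to 223%, and the B genes run from 26.0% to 119% of cluster 1.

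Variable region genes of both receptors were captured, although 3' libraries read few of them. In cluster 12 the heavy chain family Ighv gave 109 counts over 47 genes, or 36.7 CPM (30.1 to 44.3), and the kappa family Igkv 149 counts over 49 genes, or 50.2 CPM. Clusters 1, 2 and 4 had 62.2, 112 and 85.3 CPM of Ighv and 50.2, 135 and 186 CPM of Igkv. Clusters 5 and 9 had 2.53 and 2.40 CPM of Ighv. The T cell receptor alpha family Trav gave 140 counts over 40 genes, or 47.1 CPM (39.6 to 55.6), against 1.17 in cluster 1 and 172 and 127 in clusters 5 and 9. The leading member, Trav6-7-dv9, gave 10.7% of the Trav counts and also led in clusters 5 and 9. The beta family Trbv gave 66 counts over 15 genes, or 22.2 CPM, against 0.939 in cluster 1 and 91.2 and 84.1 in clusters 5 and 9. Gamma variable genes gave 2 counts, against 57 in cluster 13. In these Ighv, Igkv, Trav and Trbv families the leading gene gave at most 16.7% of the counts of cluster 12. Members of a family are close copies whose reads may be shared.

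Few of the genes with at least 50 counts in cluster 12 stood above the clusters it lies between. Of 6128 genes with at least 50 counts in cluster 12, 5980 (97.6%) lay within the range of clusters 1, 2, 4, 5 and 9, 126 (2.06%) lay above the highest of them and 22 (0.359%) below the lowest. The minimum was set in cluster 12, so genes low there were left out and the 22 does not measure them. The share within such a range was not computed for other clusters. Only 6 of the 6128 genes (0.0979%) were higher in cluster 12 than in every other of the 20 clusters, and 0 of them by over 2-fold. Each of the other 19 clusters had at least 124 such genes among its own with at least 50 counts. The 6 genes were Gopc, Yeats4, Flad1, Add1, Med6 and Zfp560, and the largest ratio to the next cluster was 1.11, for Gopc. Its level was 26.2 CPM (20.8 to 32.8), an interval that holds the 23.2 and 23.6 CPM of clusters 1 and 2.

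Most of the genes furthest above the B clusters stood higher still in the T clusters. Of the 25 with the largest ratios, 23 were higher in both clusters 5 and 9 than in cluster 12. The others were Mcpt4 and Tpsb2, which are given with the mast cell genes below. Mcpt4 had the largest ratio of CPM of all, 64.1, and Tpsb2 had 40.8. The share of all genes that were higher in both was not computed, so the 23 has no background beside it. Gm40841 stood at 31.6 CPM, with 0.939, 0 and 1.29 in the B clusters and 161 and 74.5 in clusters 5 and 9. Tctex1d1, a dynein light chain gene, stood at 103 CPM, with 382 and 301 in clusters 5 and 9, and Nsg2 at 103 CPM, with 298 and 284. Of all 833 genes over 2-fold higher than the B clusters, 780 (93.6%) were higher in cluster 5 or 9 than in cluster 12, as were 8406 (77.3%) of all 10874 genes. With the totals scaled by upper quartile, the split of 833 higher and 301 lower genes became 621 and 546, and the median of all genes moved from 0.12 to -0.11. Of the 15 genes furthest below the mean of the B clusters, 12 were below each B cluster. Among the B clusters 11 of the 15 were highest in cluster 2, which is shallow. Both counts follow in part from how the 15 were picked, and no share over all genes was computed. The 15 included Slc2a1, the glucose transporter GLUT1 (11.8 CPM against 14.3, 51.7 and 21.1), and Myo5a, a motor protein (26.9 against 41.5, 111 and 43.9).

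Set against T clusters 5 and 9 instead, 735 of 9742 genes (7.54%) exceeded them more than 2-fold and 1554 (16%) lay more than 2-fold under them, with a median of -0.36. That split depended on the scaling. It became 986 and 917 with mitochondrial, ribosomal protein and immunoglobulin genes left out of the totals, and 1035 and 786 with upper quartile scaling. Of the lineage lists, receptor and signalling genes had 19 of 21 higher than the T clusters and 0 lower, and class II genes had 12 of 13 higher and 0 lower. CD3 and receptor constants had 1 of 9 higher and 8 lower, and coreceptor and signalling genes had 1 of 23 higher and 20 lower.

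Markers of other aortic cell types stood at low CPM but were not absent. The mast cell gene Mcpt4 had the largest ratio over the B clusters of any gene with at least 50 counts in cluster 12. Mast cells are granule-bearing cells of connective tissue. Of 8 mast cell and basophil genes listed, 4 passed the filter, and all 4 were over 2-fold higher than the B clusters. Of all genes that passed, 7.66% were. The filter counts cluster 12 itself, so a gene can pass through its counts there alone, and the 4 are no measure of the list. Mcpt4 stood at 80.1 CPM (70.3 to 91.0), Tpsb2 at 38.4 and Cpa3 at 30.0, the only genes over 2-fold above the highest of clusters 1, 2, 4, 5 and 9. They were singled out after their values had been seen. Mcpt4 and Tpsb2 peaked in cluster 0, named Macrophages, at 262 and 110 CPM, and the defining basophil genes Mcpt8 and Prss34 had 0 counts in cluster 12. The mast cell list summed to 157 CPM, against 2.29 to 20.4 in the B clusters and 8.01 to 15.2 in clusters 5 and 9. Cluster 13, also named T cells, held 169 CPM of it, cluster 6 held 142 and cluster 14 held 35.9. Its part in the results was not tested.

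Of 12 macrophage genes 6 were over 2-fold higher and 1 lower. They summed to 496 CPM in cluster 12, against 190 to 419 in the B clusters, 724 and 607 in clusters 5 and 9 and 13469 in macrophage cluster 0. Lyz2 stood at 218 CPM and C1qb at 76.7. The natural killer list summed to 149 CPM, against 28.2 to 109 in the B clusters, with 2 of 8 genes higher and 1 lower. Killer cell receptors were near 0, with 7 counts of Ncr1 and 0 of Klra4. The neutrophil list summed to 125 CPM, inside the 63.9 to 261 of the B clusters, with 1 of 6 genes higher and 1 lower. The dendritic cell list had 1 of 7 genes higher, Ccr9, and 1 lower, with 0 counts of Xcr1 and Clec9a. It summed to 607 CPM, of which Ccr9 gave 423, against 152 to 352 in the B clusters. Red cell and platelet genes summed to 34.7 CPM, against 16.8 to 56.3, with 1 of 5 higher and 2 lower. Vessel wall genes summed to 85.2 CPM, against 45.3 to 158, and the 1 that passed, Pecam1, was neither higher nor lower. The part of these cell types in the results was not tested.

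Cluster 12 held a modest level of dividing cell genes. Of 21 cell cycle genes 4 were over 2-fold higher than the B clusters and 0 lower, with a median of 0.57. Mki67, a mark of dividing cells, stood at 60.9 CPM (52.4 to 70.5), against 6.81, 13.8 and 8.17 in the B clusters and 59.5 and 20.8 in clusters 5 and 9. The cell cycle list summed to 603 CPM, against 8631 in cluster 14 and 8845 in cluster 6. Of 24 interferon-stimulated genes 0 were higher and 1 lower, with a median of -0.32. The lower one, Cxcl10, had 2 counts. Of 17 immediate early genes, which respond to stress and dissociation, 0 were over 2-fold higher or lower, and the median was -0.05.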

How the data were processed

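The report rests on deposited tables of droplet 3' single-cell RNA libraries, 1 per treatment. The authors' count table gives whole-number UMI counts of 31053 genes by cluster, both libraries joined, per the file headers and its values. A deposited cell table assigns each cell a library prefix, a cluster number and a cell type name (unit other), and a deposited summary gives counts of cells, which equalled tallies from that cell table. The submitters' processing notes list Cell Ranger 2.1.1, Seurat and mm9. No source used here states the cell filters or the treatment of doublets, and no doublet caller was run, since counts per cell are not analysed here.

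CPM was computed from the deposited counts and cluster totals. Log2 ratios used a pseudocount of 0.5 CPM and genes with at least 20 counts over cluster 12 and its reference clusters. Intervals, all at 95%, are exact: Clopper-Pearson for a share, conditional for a ratio of shares and Poisson for CPM. With 1 library per treatment nothing was tested. Mean depth ran from 1278 to 24869 UMIs per cell over the clusters.

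The members and the 24 gene lists were chosen with earlier results of these data known. Genes were named from the 5 markers, the lists, the 25 genes furthest above and the 15 furthest below the B clusters, the 25 with the highest ratio to any other cluster, and the 5 most like Sox5. Calculations used pandas 2.3.3, numpy 2.4.6 and scipy 1.17.1 in Python 3.11.15, with matplotlib 3.10.9 for plots, and were tested on simulated data. Alternatives varied the pseudocount, count minimum, scaling, reference clusters and denominators. A few single-gene values are not reported here.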

Additional observations from a re-analysis of the deposited data

How the results depend on the processing

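The ratio of library shares kept its direction under 3 other denominators, from 1.47 to 2.0, and within the B cell clusters under 2 others, at 1.74 and 1.61. The 833 genes over 2-fold higher than the B clusters became 1508 with a minimum of 1 count, 1448 against cluster 1 only and 1296 without cluster 2. The 301 lower genes became 556 with a minimum of 1 count, 170 with one of 50, 546 with upper quartile scaling, 157 without cluster 2 and 532 without cluster 4. Against the T lineage clusters, a minimum of 1 count gave 1487 higher and 2852 lower genes, and 917 and 786 were lower with the totals trimmed of mitochondrial, ribosomal protein and immunoglobulin genes or scaled by upper quartile. These minimums change how many genes are counted, and the cause of the other changes was not tested.

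List medians (log2) that moved by over 1.5 times were early B cell stages at 1.90 with a minimum of 50 counts and T lineage transcription factors at 1.12 with one of 1. Against cluster 1 only they were B-1, marginal zone and memory-like genes at 1.16, plasma cell genes at 0.21, mature effector genes at 0.61 and immunoglobulin constants at -0.38, the last -0.88 without cluster 2. With a minimum of 200 counts 1.17% of genes lay above clusters 1, 2, 4, 5 and 9. Of the alternatives to these counts, medians and ratios 207 stayed within such limits and 20 did not. Ighg1 turned to 3.34 against cluster 1 only and 1.86 without cluster 4, and Cxcl10 to 0.68 against cluster 1 only. The T gene medians stayed at 35.1% to 38.3% of cluster 9 and 29.0% to 34.6% of cluster 5. Of the Cd3e, Cd8b1, Cd4, Trac and Rag1 ratios, the lowest under any alternative was 3.20. No paired analysis was possible because each treatment has 1 library. Levels with few counts, such as Igha and the Ig variable genes, are limited by depth.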
